A study of Mus musculus with 76 samples.

Results

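The nuclear genes of the respiratory chain were taken by symbol from a table of 15192 genes in 76 single mouse cells: every name beginning with Nduf, Uqcr, Atp5 or Cox followed by a digit from 4 to 8, together with Sdha, Sdhb, Sdhc, Sdhd, Cyc1 and Cycs. The rule found 90 genes. Of these, 81 encode subunits of complexes I to V or the carrier cytochrome c and were counted in the summed level of the chain. The other 9 were described apart from it: the complex I assembly factors Ndufaf1 to Ndufaf7 and Atp5sl, and Atp5s, which is not a stable subunit of ATP synthase.

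The cells were sorted iHPCs, progenitors that the study derived from mouse pluripotent stem cells by inducing Runx1, Hoxa9 and Hoxa10 together. Per the labels' protocols, iHPCs engraft C57BL/6 recipients and mature there into blood cells, the Discover-sc WTA Kit V2 gave the cDNA and the TruePrep kit the libraries (DNA Library Prep Kit V2). All 76 cells formed 1 group with the same labels of genotype and treatment, and the labels give no clone, culture, animal or sort by cell. They were therefore counted as 1 sample, every value is a description over cells with no p-value, and no progenitor from an animal or uninduced cell was analysed here.

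The respiratory chain sits in the inner mitochondrial membrane. Complexes I and II pass electrons from NADH and succinate through ubiquinone to complex III, cytochrome c carries them on to complex IV, which reduces oxygen, and complex V uses the proton gradient built on the way to make ATP. Subunits of complexes I, III, IV and V come from both the nuclear and the mitochondrial genome, whereas complex II is wholly nuclear. Blood stem cells are known for relying on glycolysis and for keeping respiration low until they differentiate. No mitochondrially encoded gene was listed, so only the nuclear share of the chain is described.

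Levels are in TPM, a share of transcripts after scaling for transcript length, so that genes of different length can be compared. Every cell summed to 1000000, which keeps no sequencing depth. A gene counted as detected at 1 TPM or more, and a median of 4182.5 genes per cell were detected (range 2465 to 5992). Blood markers were present: of the 11 listed, 8 were detected in all 76 cells, among them Arhgdib and Coro1a, and their summed level ran from 5461 to 15950 TPM. Of the pluripotency markers, Pou5f1, Tdgf1 and Lin28a were at 0 in every cell, as were Col1a1 and Col1a2 of stromal cells, Kdr and Tek of endothelium, and Tnni3 and Acta1 of muscle. These were 3 of 4 listed pluripotency, 2 of 4 stromal, 2 of 5 endothelial and 2 of 3 muscle markers. The remaining markers of these lists were detected in some cells. Only the endothelial Egfl7 reached 38 cells or more, detected in 73 cells with a median of 430.2 TPM. The summed levels reached at most 49.2 TPM for pluripotency, 167 TPM for stromal and 96.4 TPM for muscle markers, and 2.18 to 2059.9 TPM for endothelial markers. By counting error alone, 0 of 76 cells allows a share of up to 3.95% when taken as 3 counts, and up to 4.74% by the exact interval used for the other shares.

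The chain was present in every cell. Of the 90 members, 54 were detected in all 76 cells, which is 60% against 3.32% of all genes in the table. In at least 38 cells 83 members were detected, against 23.1% of all genes, and none was absent from all cells, against 18.8%. A cell had a median of 82 members detected (range 74 to 87). The 81 subunits and carriers summed to a median of 47799.5 TPM, or 4.78% of a cell's TPM. The lowest cell had 35055 TPM and the highest 73950 TPM, with an SD over cells of 8743 TPM and a coefficient of variation (CV, SD over mean) of 17.8%. No cell lacked the chain. The median was 47796.5 TPM over 37 cells with title numbers 2 to 6 and 47802.5 TPM over 39 cells with numbers 7 to 11. These letters and numbers in the titles have the form of plate positions, which the labels do not state.

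**Figure D1:**
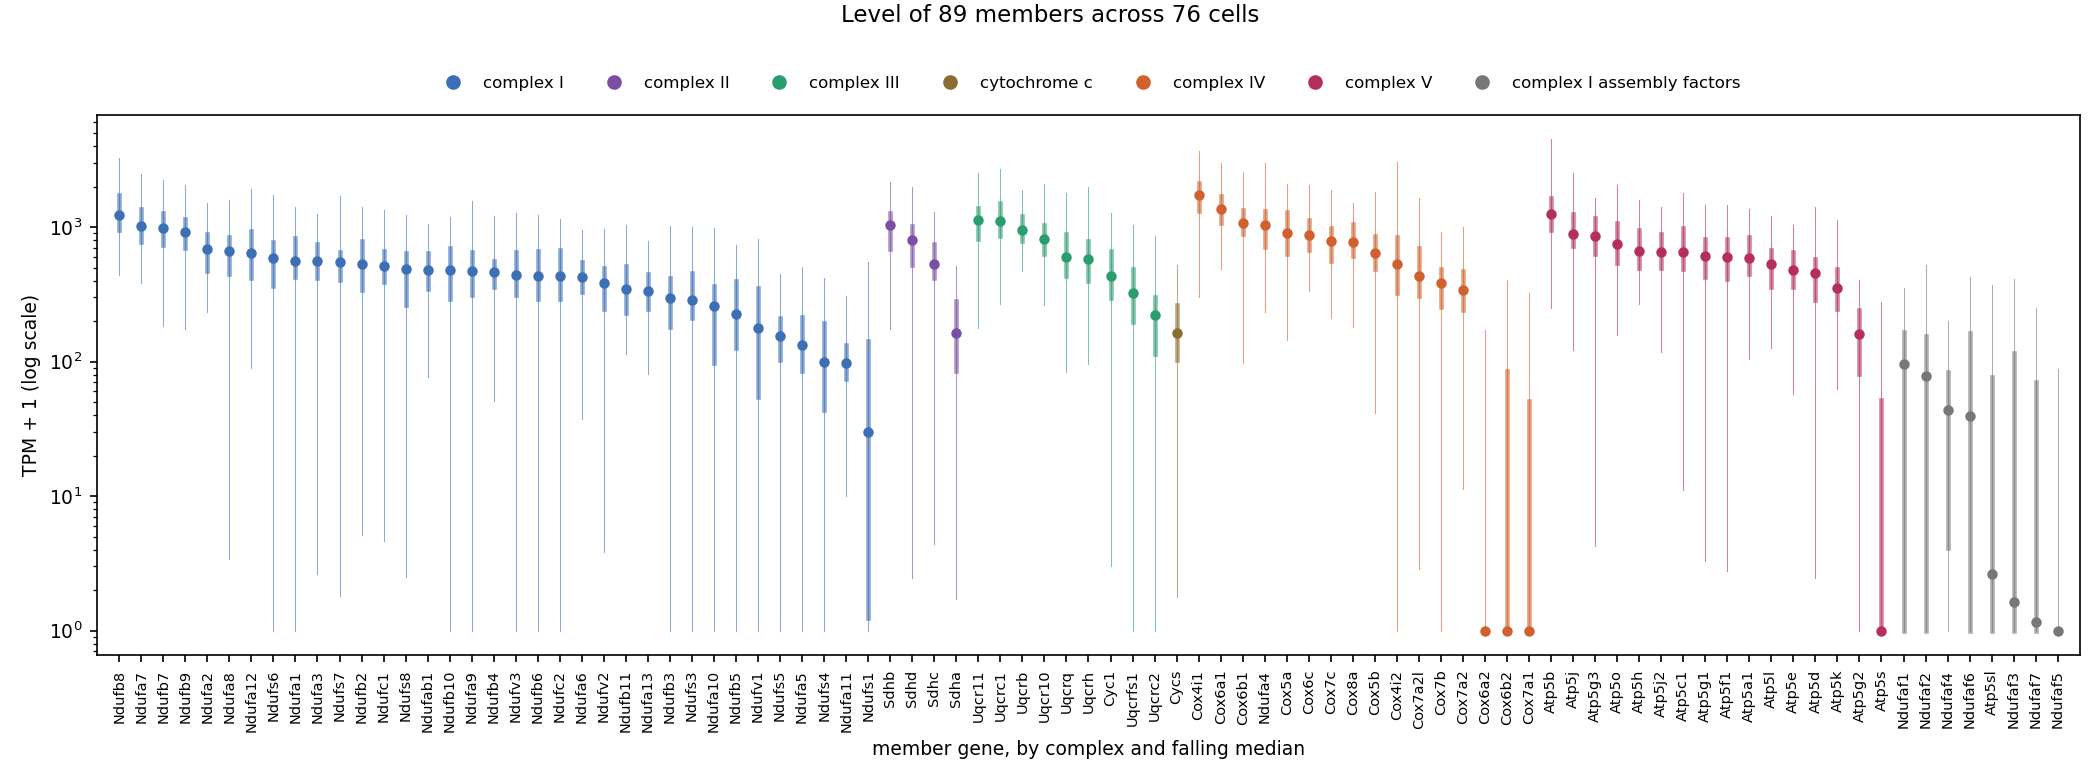
TPM + 1 on a log scale of 89 of the 90 members in 76 cells, ordered by complex and falling median. Points are medians, thick bars the quartiles and thin bars the lowest and highest cell. Most subunit medians lie between 100 and 2000 TPM, while Cox6a2, Cox6b2, Cox7a1, Atp5s and Ndufaf5 have a median of 0.

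Complex I, the NADH dehydrogenase and entry point for most electrons, had 36 subunit genes, of which 19 were detected in every cell. Its sum had a median of 17344 TPM (range 12112 to 27846 TPM, CV 18.6%). By position in the enzyme, the membrane arm summed to a median of 10412 TPM over 20 genes, the ubiquinone-binding Q module to 3948 TPM over 8 genes and the NADH-oxidising N module to 3227 TPM over 8 genes. The most abundant subunit was Ndufb8 of the membrane arm, with a lowest cell at 441 TPM, a median of 1238 TPM and a highest cell at 3261 TPM. The least abundant was Ndufs1, the large iron-sulfur subunit of the N module, with a lowest cell at 0, a median of 28.9 TPM and a highest cell at 548 TPM. Ndufs1 was detected in 45 cells (59.2%, exact 95% interval 47.3 to 70.4%), and it lies on chromosome 1 at 63143596 to 63176833 (GRCm38), where its exons overlap those of Eef1b2 on the opposite strand. The other 34 subunits had medians from 95.7 TPM (Ndufa11) to 1018 TPM (Ndufa7) and were each detected in 65 to 76 cells. The catalytic subunits that carry the flavin or iron-sulfur centres spread over this range, with medians of 552 TPM for Ndufs7, 483 TPM for Ndufs8, 384 TPM for Ndufv2 and 175 TPM for Ndufv1.

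Complex II, succinate dehydrogenase, is also an enzyme of the citric acid cycle. Its 4 genes, the fewest of any complex, summed to a median of 2489 TPM (range 1039.6 to 4172 TPM). Its CV of 29.2% was the highest of the 5 complexes, and the part of gene number in this was not tested. Sdhb, the iron-sulfur subunit, ran from 174 to 2144 TPM with a median of 1027 TPM. The membrane anchors differed, Sdhd with a median of 793 TPM (1.46 to 1968 TPM) and Sdhc with 534 TPM (3.42 to 1290 TPM). Sdha, the flavoprotein that oxidises succinate, was lowest, with a median of 163 TPM (0.704 to 511 TPM), and reached 1 TPM in 74 cells. Within each gene the cells overlapped widely with those of the next, so that the order holds for medians and not for single cells.

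Complex III, the cytochrome bc1 complex, summed to a median of 6427 TPM over 9 genes (range 4101 to 10113 TPM, CV 21.4%). The small subunit Uqcr11 was highest, at 178 TPM in the lowest cell, 1117 TPM in the median and 2525 TPM in the highest. Uqcrc2, a core subunit without a redox centre, was lowest, at 0, 223 and 853 TPM, and was detected in 70 cells. The redox subunits Cyc1 (cytochrome c1) and Uqcrfs1 (the Rieske protein) had medians of 432 and 323 TPM. Those of Uqcrh, Uqcrq, Uqcr10, Uqcrb and Uqcrc1 ran from 577 to 1102 TPM. Uqcrb varied least of all members that were detected in at least 38 cells, with a CV of 31.3% and a range from 470.3 to 1869 TPM. Cycs, the cytochrome c gene, had a median of 162 TPM (0.789 to 521 TPM) and was detected in 75 cells.

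Complex IV, cytochrome c oxidase, summed to a median of 11275 TPM over 16 genes (range 5934 to 21179 TPM, CV 23.3%). The 11 common subunits made up 9978 TPM of it. Cox4i1, a subunit needed for assembly, was the most abundant member of the whole chain, with 298 TPM in the lowest cell, 1734 TPM in the median and 3649.9 TPM in the highest. The lowest of the common subunits was Cox7a2, at 10.2, 341 and 996 TPM, and the rest had medians from 380.1 TPM (Cox7b) to 1368 TPM (Cox6a1). Cox7a2l, which joins complexes III and IV into supercomplexes, had a median of 435 TPM (1.85 to 1637 TPM). Ndufa4, named for complex I but now placed with complex IV, had a median of 1040.1 TPM (232 to 2988 TPM).

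Complex V, ATP synthase, summed to a median of 9771 TPM over 15 genes (range 6433 to 15300.2 TPM, CV 20.96%), and 14 of them were detected in every cell. Atp5b, the catalytic beta subunit, was highest, at 251.1 TPM in the lowest cell, 1247 TPM in the median and 4491 TPM in the highest. Atp5g2, 1 of 3 genes for subunit c, was lowest, at 0, 160.4 and 405 TPM, in 70 cells. Atp5a1, which encodes the alpha subunit that stands beside beta in equal number, had a median of 586 TPM. The remaining 12 subunits had medians from 352 TPM (Atp5k) to 886 TPM (Atp5j). By position, the F1 head summed to 3719 TPM, the peripheral stalk to 3029 TPM, the c ring to 1681 TPM and the small membrane subunits to 1566 TPM.

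**Figure D2:**
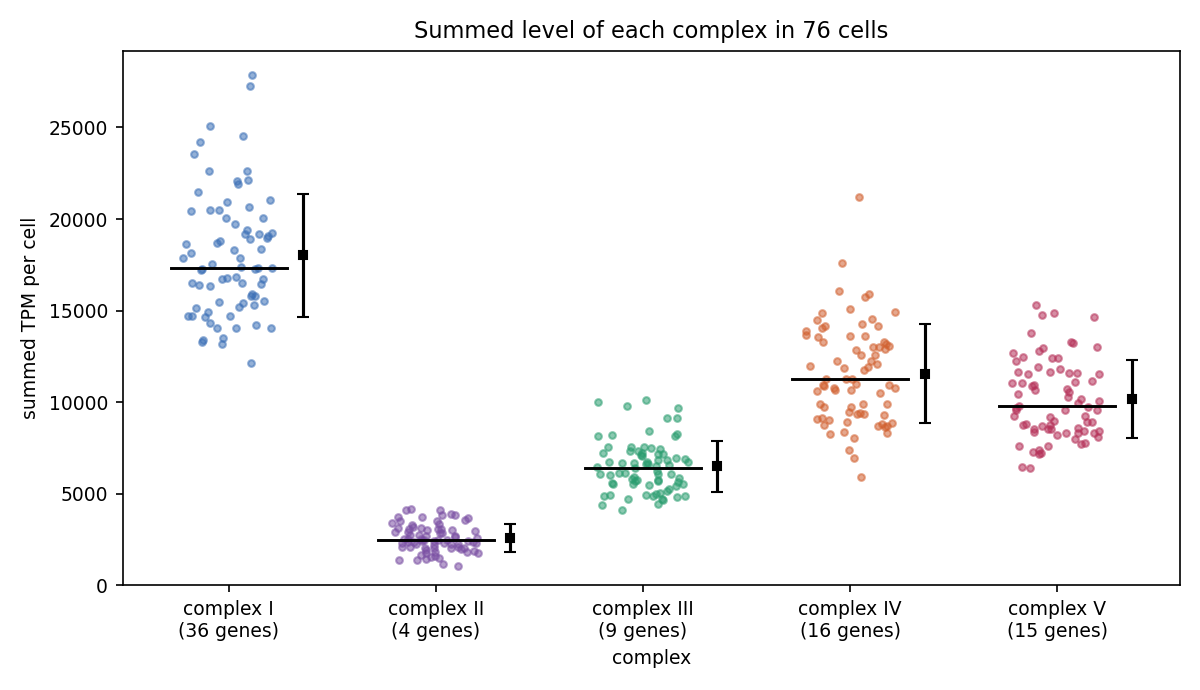
Summed TPM per cell of the subunits of each complex in 76 cells. Points are cells, horizontal lines medians, and squares with bars the mean ± SD over cells. The medians run from 2489 TPM for complex II to 17344 TPM for complex I.

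Assembly factors were lower and patchier than subunits. Ndufaf1, a chaperone of the membrane arm, had a median of 95.3 TPM and was detected in 47 cells. Ndufaf2, which acts late in assembly, had 77.1 TPM in 46 cells, Ndufaf4 had 42.9 TPM in 57 cells and Ndufaf6 had 38.3 TPM in 42 cells. Atp5sl was detected in 39 cells, Ndufaf3 in 35, Ndufaf7 in 33 and Ndufaf5 in 14, each with a median under 2 TPM. Atp5s was detected in 28 cells with a median of 0. Among members found in at least 38 cells, the highest CVs belonged to Atp5sl (149.5%), Ndufs1 (136%), Ndufaf6 (120.5%), Ndufaf2 (119.9%) and Ndufaf1 (107%). The lowest after Uqcrb were Cox6b1 (37.4%), Cox4i1 (37.8%), Ndufb7 (37.97%) and Cox6c (38.1%). Over the 54 subunits detected in every cell the median CV was 44.7%, against 47.98% over all 505 genes detected in every cell, so the subunits varied about as much as other genes of that kind.

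Assembly factors outside the naming rule, for complex I as well as the other complexes, were on a separate list, of which 40 genes were in the table. They summed to a median of 3427 TPM. In every cell 2 of them were detected (5%, against 3.32% of all genes), and in at least 38 cells 18, against 23.1% of all genes. The highest were Coa3 (476 TPM), Cox14 (371 TPM) and Cox17 (368 TPM), all factors of complex IV, the last of them a copper chaperone. Of the 40, none was absent from all cells, against 18.8% of all genes.

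Several subunits come in isoforms that differ between tissues, and these were compared within families. Cox4i2, the isoform known from lung and for its rise in low oxygen, was detected in 74 cells (97.4%, exact 95% interval 90.8 to 99.7%). It had a lowest cell at 0, a median of 528 TPM and a highest cell at 3038 TPM, with a CV of 78.6%. At a threshold of 10 TPM it was still found in 72 cells. Its share of the summed Cox4i1 and Cox4i2 had a median of 24.3% (range 0 to 74.8%), and in 4 cells it lay above Cox4i1. The gene lies on chromosome 2 at 152754173 to 152765037 on the plus strand (GRCm38), with no annotated near-identical copy and no overlapping exon. Across the 76 cells, the rho (Spearman's correlation) of Cox4i2 with Cox4i1 was 0.24. The genes most like Cox4i2, out of those detected in at least 38 cells, were Cebpb (rho 0.45), Prtn3 (0.44), Npm1 (0.43), Id1 (0.41) and Mrps18a (0.40), and Calm2 was at the other end (−0.45). Its rho with the sum of the complex was 0.12 (0.27 in title numbers 2 to 6 and −0.0027 in 7 to 11), and Cox4i2 is itself in that sum.

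None of the muscle, heart and testis isoforms was the highest of its family in any cell. Cox6a2, of heart and muscle, was detected in 2 cells (2.63%, interval 0.320 to 9.18%) and Cox6a1 led in all 76, with a median of 1368 TPM. Cox7a1, also of heart and muscle, was detected in 24 cells (31.6%, interval 21.4 to 43.3%), up to 324 TPM. Cox6b2, a testis isoform, was detected in 35 cells (46.1%, interval 34.5 to 57.9%), up to 405 TPM, and never exceeded Cox6b1, whose median was 1064 TPM. The median over all genes in the table was 11 cells, below Cox7a1 and Cox6b2 and above Cox6a2. The muscle markers Tnni3 and Acta1 were at 0 in these same cells, and the 3 listed muscle markers summed to at most 96.4 TPM. Within the Cox7a family, Cox7a2l was highest in 42 cells and Cox7a2 in 34. Cox7b had a median of 380.1 TPM and Cox8a of 772 TPM. The symbols Cox7b2, Cox8b, Cox8c and Ndufa4l2 were not among those of the table, so these genes were not analysed here.

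The 3 genes for subunit c encode the same mature protein behind different import sequences. Atp5g3 was the highest of them in 60 cells, with a median share of 53.2% (range 26.6 to 86.3%). Atp5g1 was highest in the other 16 cells, with a median share of 35.3%, and Atp5g2 in none, with a median share of 9.45%. Annotated processed copies exist for Atp5g1 and Atp5g2, which are not among the genes of the table, so that these shares carry some uncertainty from read assignment.

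**Figure D3:**
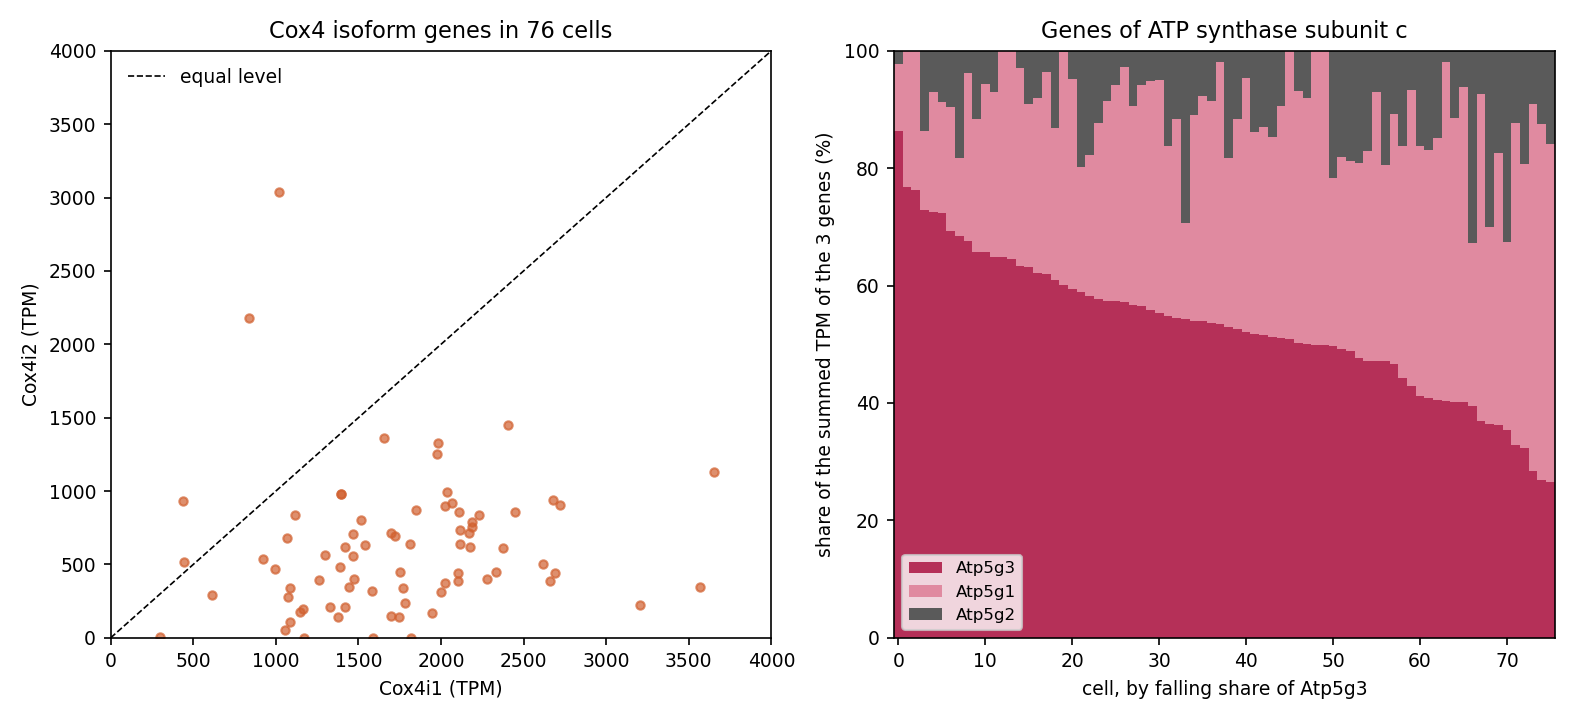
Left, Cox4i2 against Cox4i1 in TPM, 1 point per cell, with a line of equal level: 4 of 76 cells lie above it. Right, the share of each cell's subunit c TPM (%) taken by Atp5g3, Atp5g1 and Atp5g2, cells ordered by falling Atp5g3 share, which runs from 86.3 to 26.6%.

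Near-identical copies elsewhere in the genome were annotated for 13 members (at least 95% identity over at least 50% of the transcript), and for 2 of them the copy was itself in the table. BC002163, a processed copy of Ndufs5, had a median of 257 TPM in 74 cells, above the 153 TPM of Ndufs5, so the level of Ndufs5 is uncertain. Gm10012, a copy of Cox7c, had 23.9 TPM in all 76 cells, against 785 TPM for Cox7c. Exons of 31 members overlapped another gene, for example Cox4i1 with Emc8 and Atp5j with Gabpa, both on opposite strands. The sources used here do not state whether reads were assigned by strand.

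The sums of the complexes were positively correlated across cells. Between sums of complexes, rho over 76 cells was 0.70 for I with IV, 0.68 for III with V, 0.64 for IV with V, 0.62 for I with V, 0.59 for III with IV and 0.56 for I with III. Complex II followed less closely, at 0.44 with III, 0.42 with IV, 0.34 with V and 0.32 with I. Its sum holds only 4 genes, against 9 to 36 in the other complexes, and the part of gene number was not tested. Averaged over the 10 pairs rho was 0.53, with 0.58 in title numbers 2 to 6 and 0.46 in numbers 7 to 11. It was 0.35 with the cytosolic ribosomal proteins regressed out and 0.16 with subunits of over 1000 bases only. All these points share a library per cell and a fixed total of TPM, and the correlations are descriptions.

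Single genes showed this only faintly. Over 3003 pairs of the 78 subunits detected in at least 38 cells, the mean rho was 0.10 and 74.1% of pairs were positive, against 0.0084 and 52.4% for all pairs of the 3511 genes detected that often. The mean was 0.10 for pairs within a complex and 0.10 for pairs between complexes. The highest mean was that of complex IV (0.20), followed by V (0.14), II (0.11), III (0.089) and I (0.082). For comparison, the mean was 0.25 for cytosolic ribosomal proteins, 0.22 for glycolysis genes, 0.44 for S phase genes and 0.030 for the genes of pyruvate entry and the citric acid cycle. Each subunit was also set against the sum of all the others: 73 of 78 had a positive rho (93.6%), with a median of 0.34. Of 3428 other genes, 47.4% had a positive rho with the chain sum, with a median of −0.0092. Cox7c was highest at 0.62, and Cox7a2l lowest at −0.19, with Uqcrc2 at −0.11 and Atp5f1 at −0.088.

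The most correlated pairs were Atp5j with Uqcr10 (rho 0.58, 0.47 in title numbers 2 to 6 and 0.70 in 7 to 11), Atp5j with Ndufc1 (0.53), Atp5j with Ndufa12 (0.52), Cycs with Uqcr10 (0.51) and Ndufa12 with Uqcr10 (0.51). Atp5j encodes coupling factor 6 of the peripheral stalk and Uqcr10 a small subunit of complex III. Each pair joined 2 different complexes or a complex and its carrier, as did 2148 of all 3003 pairs of subunits. The value for Atp5j with Uqcr10 was 0.44 by Pearson's r of log2(TPM + 1). Atp5j had a lowest cell at 119.9 TPM, a median of 886 TPM and a highest cell at 2508 TPM. Uqcr10 had 264, 812 and 2085 TPM. No cell was at 0 for either gene.

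Promoters of nuclear respiratory genes are known for sites of the ETS factor GABP (also called NRF2) and of NRF1. The RefSeq windows of GRCm38.p6, 250 bases before to 50 after the start, were searched on both strands for the letters CCGGAAG (ETS), GCGC, any base and TGCGC in a row (NRF1), AAGATGGCG (YY1) and CCAAT (NFY). Windows were given for 75 of the 90 members, and for 67 of the subunits and carriers. Of these 67, 15 held the ETS letters (22.4%, against 9.12% of all 27025 windows and 23.4% of 325 other genes detected in every cell). The NRF1 letters were in 16 (23.9%, against 4.78% and 15.4%), the YY1 letters in 6 (8.96%, against 1.49% and 3.38%) and CCAAT in 29 (43.3%, against 37.9% and 41.8%). The ETS letters were thus about as frequent as in other genes detected in every cell. Shown first are the 250 bases before the start of the most correlated pair, which hold neither ETS nor NRF1 letters, and then those of Sdhd and Cox6a1, which hold both. Capitals mark ETS, NRF1 and CCAAT letters, on either strand. Sequences run 5′ to 3′ along the gene.
Atp5j, chr16:84835626-84835875, minus strand: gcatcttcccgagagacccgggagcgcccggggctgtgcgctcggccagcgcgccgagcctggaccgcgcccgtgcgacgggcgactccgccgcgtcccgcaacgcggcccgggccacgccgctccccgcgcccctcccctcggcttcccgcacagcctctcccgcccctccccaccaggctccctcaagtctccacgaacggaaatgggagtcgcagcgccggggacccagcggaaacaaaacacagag
Uqcr10, chr11:4704345-4704594, minus strand: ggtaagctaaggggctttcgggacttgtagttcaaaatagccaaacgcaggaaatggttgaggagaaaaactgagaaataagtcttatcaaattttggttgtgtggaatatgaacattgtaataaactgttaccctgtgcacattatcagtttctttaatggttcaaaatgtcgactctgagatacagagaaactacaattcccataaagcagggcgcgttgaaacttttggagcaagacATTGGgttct
Sdhd, chr9:50603850-50604099, minus strand: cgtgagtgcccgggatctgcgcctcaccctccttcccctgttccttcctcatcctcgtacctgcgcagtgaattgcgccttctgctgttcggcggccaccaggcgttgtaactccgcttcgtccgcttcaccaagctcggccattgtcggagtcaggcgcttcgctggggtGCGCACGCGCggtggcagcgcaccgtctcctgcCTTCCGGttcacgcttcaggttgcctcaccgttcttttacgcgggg
Cox6a1, chr5:115348959-115349208, minus strand: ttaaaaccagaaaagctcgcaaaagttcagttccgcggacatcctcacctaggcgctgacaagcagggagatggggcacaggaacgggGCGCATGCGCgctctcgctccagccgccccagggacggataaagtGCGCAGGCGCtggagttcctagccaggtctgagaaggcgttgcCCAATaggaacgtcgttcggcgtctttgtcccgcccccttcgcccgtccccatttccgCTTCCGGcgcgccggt
In Sdhd the NRF1 letters span positions −79 to −70 before the start and the ETS letters −46 to −40. In Cox6a1 NRF1 letters lie at −162 to −153 and at −117 to −108, CCAAT at −74 to −70 and ETS letters at −16 to −10. Atp5h and Atp5k also held both, with the ETS letters of Atp5k after the start. The upstream stretches of the most correlated pair differed in base composition, 74.8% G and C for Atp5j and 38.8% for Uqcr10. Subunits with ETS letters had a median rho of 0.45 with the rest of the chain (15 genes) against 0.30 without (50 genes). Subunits with ETS letters also had a higher level, with a median of 664 TPM against 479 TPM without. Over subunits, the median TPM had a rho of 0.54 with the correlation to the rest of the chain. The part of level in the ETS values was not tested. For NRF1 letters the medians of rho were 0.33 with (16 genes) and 0.34 without (49 genes).

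The factors themselves were each detected in part of the cells. Gabpa reached 1 TPM in 23 cells, its partner Gabpb1 in 40, Nrf1 in 30, Yy1 in 24 and Esrra in 9. Over all genes in the table the median was 11 cells, and 23.1% of genes were detected in at least 38 cells. Ppargc1a, the coactivator that drives mitochondrial biogenesis in muscle and brown fat, was at 0 in every cell, and Ppargc1b was detected in 1. Myc, a broad activator of growth genes, was detected in 75 cells with a median of 348 TPM, Tfam, which packages mitochondrial DNA, in 51 with 32.9 TPM, and Hif1a in 40 with 4.81 TPM. The 20 listed regulators summed to a median of 746 TPM (range 11.03 to 2391 TPM), and the rho of this sum with the chain was −0.071.

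The chain was set beside the other lists over the 76 cells, again as descriptions. Its closest companion was the sum of 83 cytosolic ribosomal proteins, with a rho of 0.73 (Pearson r 0.75), 0.84 in title numbers 2 to 6 and 0.61 in 7 to 11. Of the 78 subunits, 69 had a positive rho with that sum (88.5%), against 42.5% of other genes. The mitochondrial ribosome, 76 genes with a summed median of 14289.8 TPM, had a rho of 0.47 with the chain, which became 0.036 with the cytosolic ribosomal proteins regressed out. Mrpl42 (679 TPM), Mrpl23 (479 TPM) and Mrpl33 (456 TPM) were its highest genes. Pyruvate entry and the citric acid cycle, 20 genes with a summed median of 5579.7 TPM, had a rho of 0.24, with Mdh2 (1367 TPM), Idh2 (889.7 TPM) and Idh3g (748 TPM) highest. By complex, this rho was 0.43 for complex II, 0.37 for V, 0.35 for III, 0.11 for IV and 0.072 for I.

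Against glycolysis the chain showed no direction that held in both ranges of title numbers. The 24 glycolysis and lactate genes summed to a median of 22639 TPM (range 10602 to 40033 TPM), less than the chain in all 76 cells, with a smallest gap of 639 TPM. The rho between both sums was −0.10, with 0.036 in title numbers 2 to 6 and −0.26 in numbers 7 to 11. With the cytosolic ribosomal proteins regressed out it was 0.23, and those proteins had a rho of −0.34 with glycolysis. Of the 78 subunits, 32 had a positive rho with glycolysis (41.03%), against 46.3% of other genes. Eno1 (5677 TPM), Pkm (4044 TPM) and Ldha (3971 TPM) were the highest glycolysis genes, and Hk3 and Eno2 were at 0 in every cell. Eno1 has a near-identical listed copy, Gm5506, so its level is uncertain. Gapdh, usually among the most abundant of these genes, had a median of only 133 TPM and at most 255 TPM, which lowers the glycolysis sum, and whether its reads were assigned elsewhere was not tested.

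The rho of single members with glycolysis lay on both sides of 0. Its median was −0.026 over the 78 subunits and −0.013 over other genes. Whether the members spread more than other genes was not tested. Among the higher values of rho with glycolysis were those of Uqcrc1, a core subunit of complex III (0.24), Atp5a1 (0.23), Atp5b (0.22) and Cox6a1 (0.19). That of Uqcrc1 was 0.28 in title numbers 2 to 6 and 0.22 in 7 to 11. Lowest were Atp5e (−0.34), Uqcr10 (−0.33), Ndufaf4 (−0.32), Cycs (−0.28) and Ndufa12 (−0.28). The rho of Atp5a1 was 0.43 in title numbers 2 to 6 and 0.10 in numbers 7 to 11, and that of Atp5b 0.30 and 0.16. The rho of Atp5e was −0.17 and −0.48, and that of Cox6a1 was 0.35 and −0.012. Of the other F1 head subunits, Atp5c1 had 0.13 and Atp5d 0.046.

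The chain had low correlations with the sums of cell cycle genes. The 28 S phase genes summed to a median of 2927 TPM (range 459 to 14556 TPM), led by Rfc2 (525 TPM), Slbp (387 TPM) and Pcna (237 TPM), and had a rho of 0.059 with the chain. The 26 G2 and M phase genes summed to a median of 357 TPM (2.13 to 12137 TPM), led by Cenpa (52.7 TPM), Cdk1 (38.1 TPM) and Ccnb2 (1.19 TPM), and had a rho of 0.18. When each list was taken as the mean of log2(TPM + 1) in place of the sum, these became 0.26 and 0.34. The value for the G2 and M phase sum was also 0.33 with the cytosolic ribosomal proteins regressed out and 0.33 with other short genes regressed out, while that for S phase was 0.024 and 0.11. Positive rho with S phase was found for 46 of 78 subunits (58.97%, against 54.9% of other genes) and with G2 and M phase for 51 (65.4%, against 59.6%). Both shares lay near those of other genes.

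A few members followed S phase more closely. Ndufaf2 had a rho of 0.48 with the S phase sum, 0.48 in title numbers 2 to 6 and 0.47 in 7 to 11. Ndufab1, the mitochondrial acyl carrier protein, which serves lipoate and iron-sulfur synthesis besides complex I, had 0.43 (0.17 and 0.60). Cycs had 0.43 (0.26 and 0.51), Ndufaf4 0.38 (0.31 and 0.41) and Ndufa12 0.37 (0.33 and 0.37). Lowest were Ndufb11 (−0.35), Ndufb9 (−0.33), Ndufa8 (−0.31), Ndufs4 (−0.26) and Ndufb7 (−0.24). The S phase sum itself had a rho of 0.31 with the number of genes detected in a cell, where Ndufaf2 had 0.26, Cycs 0.25 and Ndufb11 −0.24, and the part of detection in these values was not tested. Among the complexes, the rho with S phase was 0.25 for III, 0.19 for V, 0.047 for II, −0.030 for IV and −0.13 for I.

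**Figure D4:**
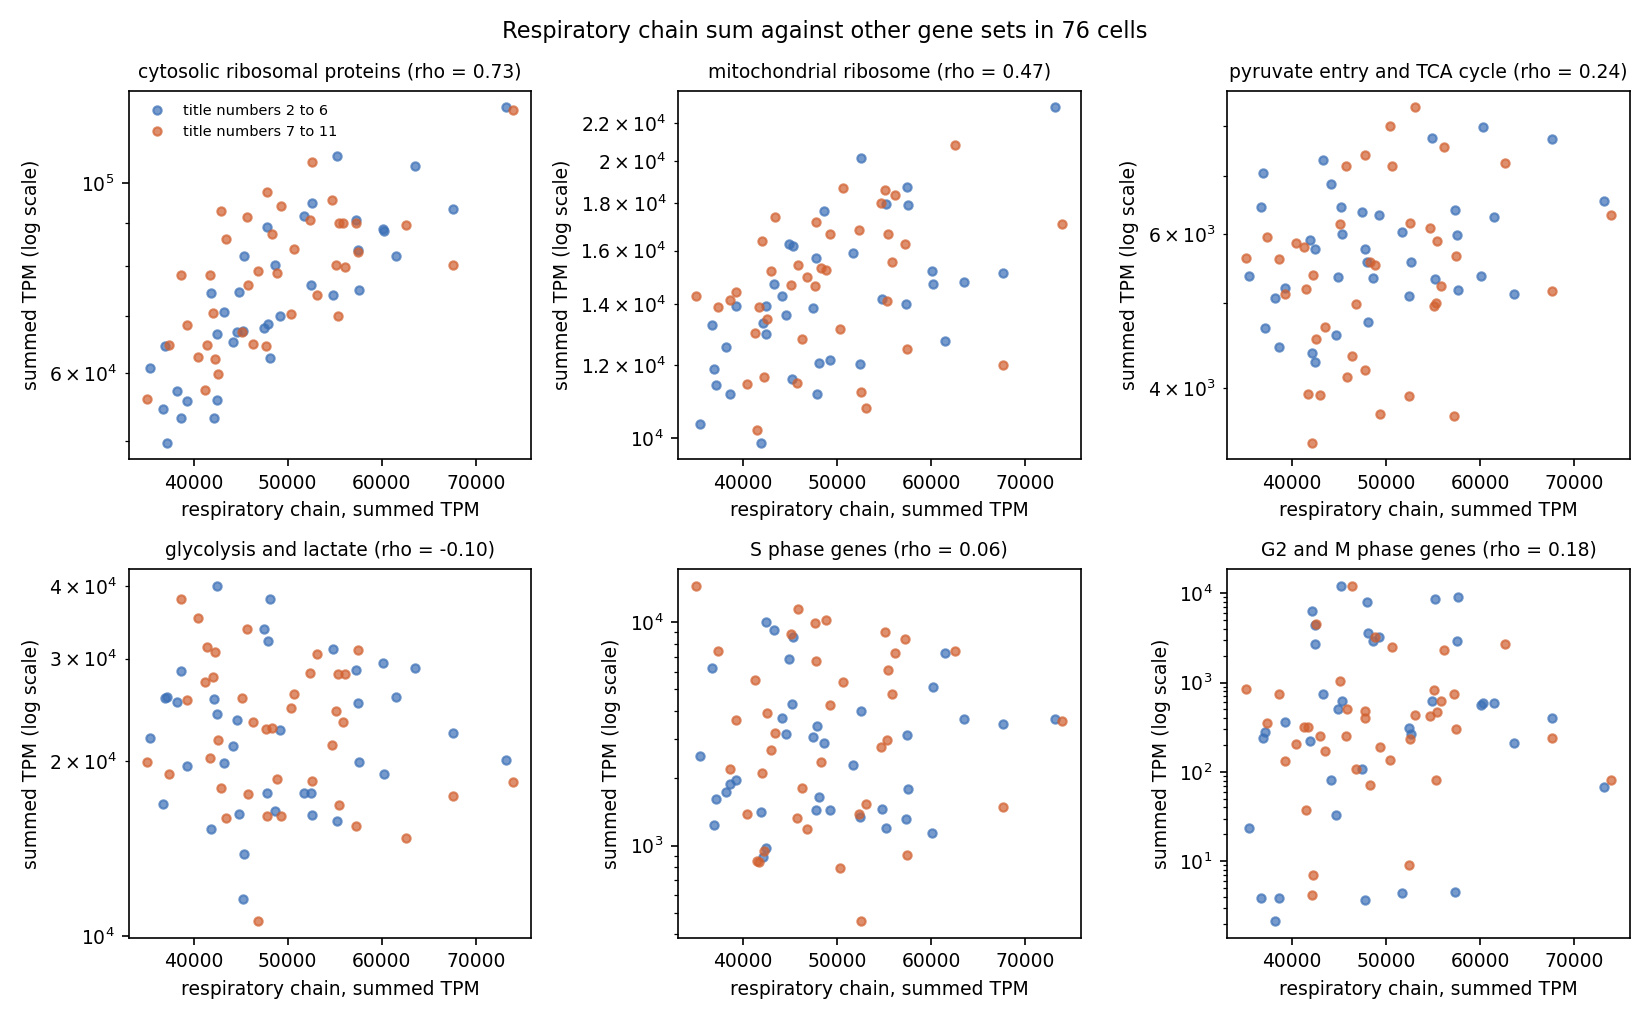
Summed TPM of the respiratory chain (x axis) against summed TPM of 6 other lists (y axes, log scale), 1 point per cell, coloured by title number. The panels of cytosolic ribosomal proteins (rho 0.73) and of the mitochondrial ribosome (0.47) slope upward, while glycolysis (−0.10) and S phase (0.059) are flat.

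Among single genes outside the chain, Snrpg, a small core protein of the spliceosome, was most like its sum (rho 0.68). Next came Rpl38 (0.64), Atpif1 (0.61), Rps28 (0.61), Tomm6 (0.61), Rps27l (0.61), Rpl27 (0.60), Rplp2 (0.59), Psmb3 (0.58) and Ppia (0.58). The order depends on the measure: by Pearson's r of log2(TPM + 1), Snrpg was lowest of these genes (0.52) and Tomm6 highest (0.64). Atpif1 encodes the inhibitor of ATP synthase and Tomm6 a part of the mitochondrial import pore. Lowest were Eif4g2 (−0.48), Wdr1 (−0.45), Gp49a (−0.44), Lcp1 (−0.43) and Tmem123 (−0.43).

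Transcript length and level both went with this pattern. The length of a gene was the median over its principal transcripts in GENCODE M21, or its longest transcript where none was marked. The subunits are short, with a median transcript of 838 bases (range 371 to 3171) against 1980 for other genes. Over the 78 subunits the rho of length with the correlation to the rest of the chain was −0.56, and with the median TPM −0.33. The median TPM of a subunit had a rho of 0.54 with the correlation to the rest of the chain, about as large as that of length, so level went with the pattern as well. Other genes showed the same order more weakly (rho −0.28 over 3177 genes). In 89 genes of up to 600 bases the median rho with the chain was 0.25, in 352 genes of over 600 and up to 1000 bases 0.088, and in the 3 classes of longer genes between −0.048 and −0.0060. The cytosolic ribosomal proteins are short as well, and those genes are part of these classes.

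The chain was therefore split at 1000 bases. The 50 subunits up to that length had a rho of 0.78 with cytosolic ribosomal proteins, 0.53 with 342 other short protein-coding genes and 0.14 with the citric acid cycle. The 31 longer subunits had 0.42, 0.058 and 0.45. The sums of short and of long subunits had a rho of 0.59 with each other. Between complexes I, III, IV and V, the mean rho was 0.66 with short subunits alone (range 0.56 to 0.79) and 0.11 with long subunits alone (range −0.089 to 0.34). The long sets hold few genes, 14 in complex I, 4 in III, 2 in IV and 6 in V. The annotated length need not be that of the expressed transcript. Atp5g1 was counted as long at 2675.5 bases, though 1 of its principal transcripts has 596 bases, and the part of this in the split was not tested. Among single pairs, the mean rho was 0.18 for short and 0.045 for long subunits. The 342 other short genes are those of up to 1000 bases in at least 38 cells that are on no list used here, so that 99 short list genes, ribosomal proteins among them, are left out. Their mean pairwise rho was 0.013, against 0.25 for the cytosolic ribosomal proteins. With their sum regressed out, the rho of the chain with cytosolic ribosomal proteins was 0.66 and the mean between the 5 complexes 0.51. With the cytosolic ribosomal proteins regressed out in their place, the mean between the 5 complexes was 0.35 and the mean over pairs of subunits 0.053. The sum of these short genes had a rho of −0.50 with the number of genes detected, and that of the chain −0.048. The part of length in the correlation between complexes was not tested beyond these values.

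**Figure D5:**
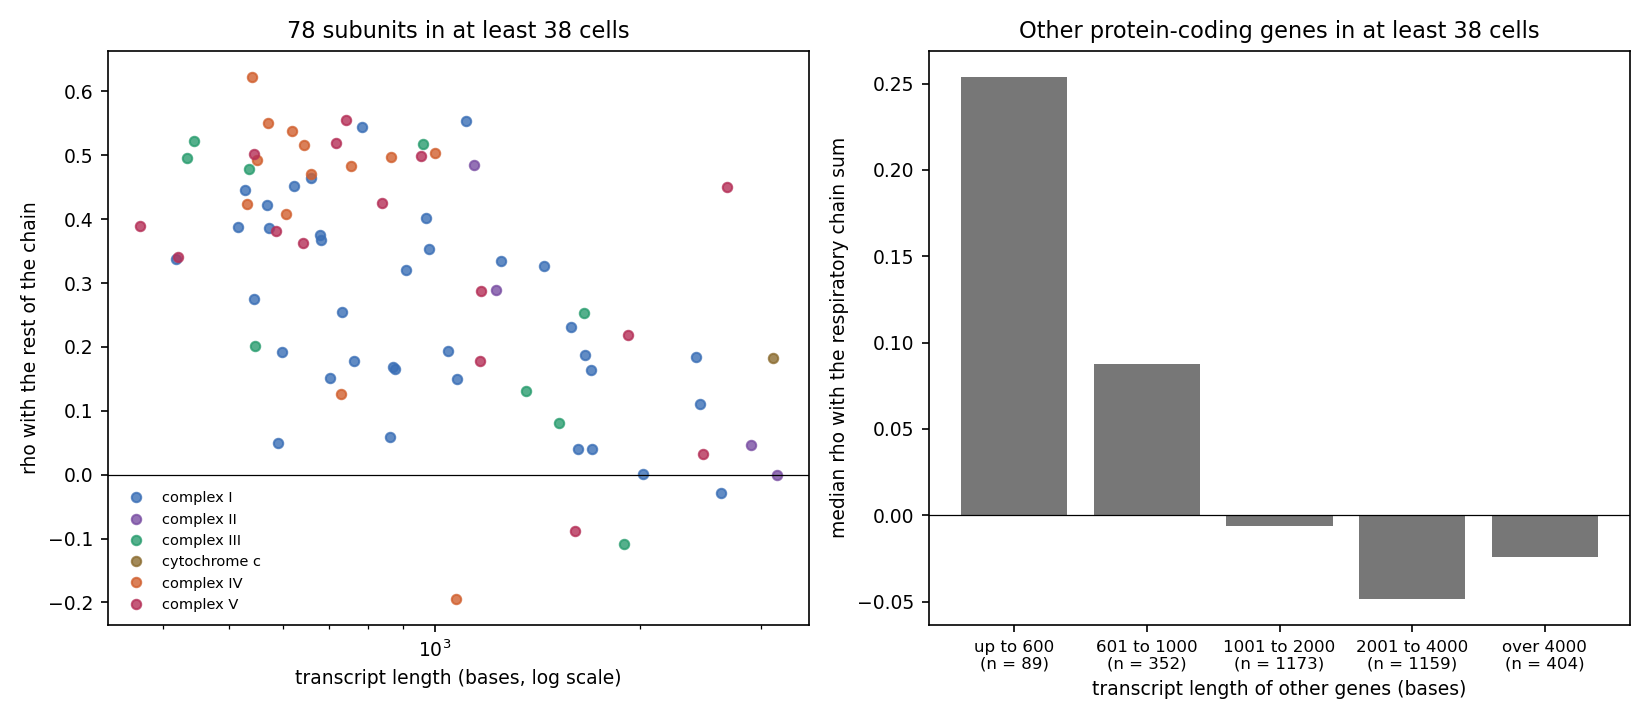
Left, the rho of each of 78 subunits with the sum of the rest of the chain against transcript length in bases (log scale), coloured by complex; values run from −0.19 to 0.62 and fall with length. Right, the median rho with the chain of other protein-coding genes in 5 classes of length, from 0.25 up to 600 bases to −0.024 over 4000 bases.

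The extreme cells are described last. The cell with the lowest chain sum, 35055 TPM, had the highest S phase sum of all, 14556 TPM, 56049.9 TPM of cytosolic ribosomal proteins and 4154 genes detected. The cell with the highest chain sum, 73950 TPM, had the highest complex IV sum, 21179 TPM, with 121895 TPM of cytosolic ribosomal proteins and 3905 genes detected. Both had 80 members detected.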

How the data were processed

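RNA of 76 single iHPCs was analysed as 1 group. The authors deposited 1 table of TPM, made on mm10 with HISAT2 2.1.0, StringTie 1.3.4, SAMtools 0.1.19 and bcl2fastq, per the submitters' processing notes. The sources used here do not give the order of these tools, the annotation or a filter on genes. TPM keeps no depth, so counting error per gene is unknown, and 66.3% of values are 0, which can be failed capture. Correlations between cells ran from 0.338 to 0.752 over genes detected in at least 38 cells, so no cell was a repeat of another.

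From the table, detection (at least 1 TPM), sums per list and Spearman's rho over cells were computed with Python 3.11.15, numpy 2.4.6, scipy 1.17.1 and pandas 2.3.3. Intervals on shares of cells are exact Clopper-Pearson 95% intervals and cover counting of cells only. Of the symbols, 93.4% were found in GENCODE M21 (GRCm38), including 89 of 90 members; promoter windows came from RefSeq, GRCm38.p6. Procedures were tested on simulated data.

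The members, the lists and the motifs were chosen with earlier results of these data known. Named genes followed a rule: the highest and lowest median of each complex, isoform families, complex II and Cycs, the 5 most and least variable members, members in under 38 cells, the 5 most correlated pairs, the 5 members at each end for glycolysis and S phase, the 10 most and 5 least similar other genes, and the 3 highest genes of each list with those at 0. Other members were named for their role, and 1 gene that the rule takes is not reported here. Without a test, a rho was taken to have moved when it changed by over 0.1, and the count of members detected in every cell by over 1.5 times. For summed levels and members detected per cell the limit was their SD over cells.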

Additional observations from a re-analysis of the deposited data

How the results depend on the processing

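Of 137 alternative values of 16 results, 114 stayed within the limits set, 19 moved and 4 changed sign. Those that stayed include every alternative of the summed levels, whose limit was the SD over cells, a wide limit for a median. The sign changes were all in the rho of the chain with glycolysis, −0.10 in the main setting: 0.036 in title numbers 2 to 6, 0.015 with other short genes regressed out, 0.23 with cytosolic ribosomal proteins regressed out and 0.051 with subunits over 1000 bases only. In title numbers 7 to 11 it was −0.26. With lists taken as the mean of log2(TPM + 1), the rho of the chain was 0.26 with S phase, 0.34 with G2 and M phase, 0.39 with the citric acid cycle and 0.53 with cytosolic ribosomal proteins, and the mean between complexes was 0.41. With other short genes regressed out the rho with G2 and M phase was 0.33. With cytosolic ribosomal proteins regressed out it was 0.33, the rho with the mitochondrial ribosome was 0.036 and the mean between complexes 0.35. With subunits over 1000 bases only, the rho was 0.45 with the citric acid cycle, 0.21 with the mitochondrial ribosome and 0.42 with cytosolic ribosomal proteins, and the mean between complexes was 0.16. With subunits up to 1000 bases only, the rho with the citric acid cycle was 0.14, and the mean between all 5 complexes was not run, since complex II has no such subunit. For the mitochondrial ribosome the rho was 0.59 in the 65 cells with at least 3500 genes and 0.60 in title numbers 2 to 6. For cytosolic ribosomal proteins it was 0.84 in title numbers 2 to 6 and 0.61 in 7 to 11. The cause of these shifts was not tested. The splits by transcript length, the regressions on short genes and on ribosomal proteins and the 10 TPM threshold were chosen after seeing the data. Members detected in every cell ranged from 38 at 10 TPM to 63 in title numbers 2 to 6, against 54. With 1 sample and unknown depth, neither differences between cultures nor counting error per gene can be given. No paired analysis was possible because all cells belong to 1 group.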

Other observations

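Genes that serve the chain from outside it were also looked at. Of 24 carriers, uncoupling proteins, and fission or fusion factors, 5 were detected in every cell (20.8%, against 3.32% of all genes). The summed level of the 24 had a median of 8138 TPM and a rho of 0.49 with the chain (0.62 in title numbers 2 to 6, 0.35 in 7 to 11). The highest were Atpif1, the ATP synthase inhibitor (1681 TPM), Slc25a5, an ADP/ATP carrier (1417 TPM), and Usmg5, a small ATP synthase subunit outside the naming rule (741 TPM). Usmg5 had a rho of 0.42 with the chain. Ucp2, the uncoupling protein of blood cells, reached 1 TPM in 74 cells, with a median level of 143 TPM, and its rho was −0.21. Ucp3, of muscle, and the mitochondrial creatine kinase gene Ckmt1 were detected in 0 cells, as were 18.8% of all genes. Of the fusion genes, Opa1 was detected in 21 cells, Mfn1 in 16 and Mfn2 in 7. Of the fission genes, Fis1 was detected in 74 cells and Dnm1l in 54. The median over all genes in the table was 11 cells.

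The 11 antioxidant genes summed to a median of 6837 TPM, led by Gpx1 (3208 TPM), Sod1 (1316 TPM) and Gpx4 (784 TPM). Their rho with the chain was 0.062. Sod2, the mitochondrial superoxide dismutase, had a median of 79.2 TPM in 69 cells.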
